A study of Mus musculus with 12 samples.

Results

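Liver gene expression after low-dose penicillin and high-fat feeding together was compared with that of untreated mice kept on chow, in 6 of the 12 arrays of the series. The 3 arrays labelled as low-dose penicillin with high-fat diet were set against the 3 labelled as control with normal chow, as the sample titles give them, and no measured value entered that choice. All mice were male C57BL6J, an inbred laboratory strain, and livers were taken at 30 weeks of age. The penicillin high-fat mice drank water with penicillin at 6.7 mg/L and were moved at 17 weeks from chow with 13.5% of energy as fat to a diet with 45%. The control chow mice received no antibiotic and stayed on the chow. The remaining 6 arrays hold the single exposures, 3 of penicillin on chow and 3 of high-fat diet without penicillin. Their changes against the same control chow arrays were added on the log2 scale, and this sum was set beside the joint change. Per the labels the 3 samples of each group are biological replicates. Which mice shared a cage or litter is not given in the sources used here, so p-values rest on the variation among the mice on the arrays alone.

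The liver takes up fatty acids from the blood and makes others from sugar, stores them as triglyceride in droplets, burns them in mitochondria and peroxisomes, or exports them in lipoproteins. The nuclear receptor PPAR alpha switches on fatty acid oxidation genes, PPAR gamma is known for driving droplet and uptake genes in fatty liver, and SREBP and ChREBP drive lipogenesis. Male and female mouse livers also differ in many cytochrome P450 and transporter genes, under the control of the pulse pattern of growth hormone, and high-fat feeding is a known setting in which some of these genes shift. Low-dose antibiotics are given in such studies to disturb the gut microbiota, whose products reach the liver through the portal vein.

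The deposited values are log2 intensities scaled so that every array has the same overall distribution, so a change is one against the genes as a whole. In whole liver, fewer cells of a type and less RNA per cell cannot be told apart. Defining hepatocyte markers were high on every array, and Ttr, the transport protein transthyretin, averaged 14.80 in control chow and 14.88 in penicillin high-fat mice. Arrays of a group correlated at 0.985 to 0.995 over the tested genes. On the first principal component, which held 36.3% of the variance, control chow arrays lay from -16.2 to -13.4 and penicillin high-fat arrays from 16.1 to 25.7. The 18S control signal ran from 13.0 to 13.2 in control chow and was 13.3, 11.8 and 13.2 in penicillin high-fat mice 1, 2 and 3, and penicillin chow mice 2 and 3 also read 11.8. A clock score, genes of the Per and Dbp phase minus those of the Bmal1 phase, was 0.59, 0.75 and -0.53 in control chow mice 1, 2 and 3 and -1.58, 0.05 and -0.41 in penicillin high-fat mice, so mouse 1 of the latter group and control chow mouse 3 stood apart from their groups. Penicillin chow mouse 1, which enters every sum and departure, lay at -30.1 on the second principal component, where the other 11 arrays ran from -5.32 to 10.6. Its acute-phase list level was 0.85, against -0.32 to 0.32 on the others. The part of that array, of the 18S signal and of sampling time in single results was not tested beyond the fits given with them.

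With both exposures, 1180 of 13789 tested genes changed, which is 8.56% at an adjusted p under 0.05 in limma with the Benjamini-Hochberg adjustment. Of these, 792 rose (5.74% of those tested) and 388 fell (2.81%). Changes of at least 2-fold numbered 124 higher and 43 lower, and changes of at least 4-fold numbered 29 higher and 4 lower. The 3 penicillin high-fat arrays lay wholly above or wholly below the 3 control chow arrays in 1173 of the 1180, and in 31.9% of all tested genes. Against the same control chow arrays, penicillin on chow changed 1 gene, or 0.00725%, and high-fat diet without penicillin changed 124, or 0.899%. Of the 1180 genes, 109 were also called for high-fat diet alone and 1 for penicillin alone, while 1071 were called for neither, although a gene that misses the threshold in 1 comparison is not shown to differ from one that passes in another. The joint count fell when any one of the 6 mice compared was left out, which also leaves fewer mice in a group. It was 607 without control chow mouse 1, 538 without control chow mouse 2 and 848 without control chow mouse 3. Without penicillin high-fat mouse 1 it was 494, without mouse 2 of that group 1160 and without mouse 3 of that group 639. Adding the clock score to the fit as a covariate left 437.

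The joint change went further than the sum of the single changes in most of the genes that rose. Over the 792 higher genes the median joint change was 0.54 on the log2 scale, the median sum 0.37, the median change with high-fat diet alone 0.31 and with penicillin alone 0.08. Joint exceeded sum in 606 of the 792. Over the 388 lower genes the median joint change was -0.44 and the median sum -0.40, and the joint change was the more negative in 249. The joint change and the sum share the control chow arrays, and genes were picked on the arrays that carry the joint change, so these counts are a description that the choice of genes partly fixes. Over all tested genes the median joint change was -0.01 and the median sum -0.01. The departure of the joint change from the sum, which is the interaction of penicillin and diet in the fit, passed in 6 genes, or 0.0435% of those tested.

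**Figure D1:**
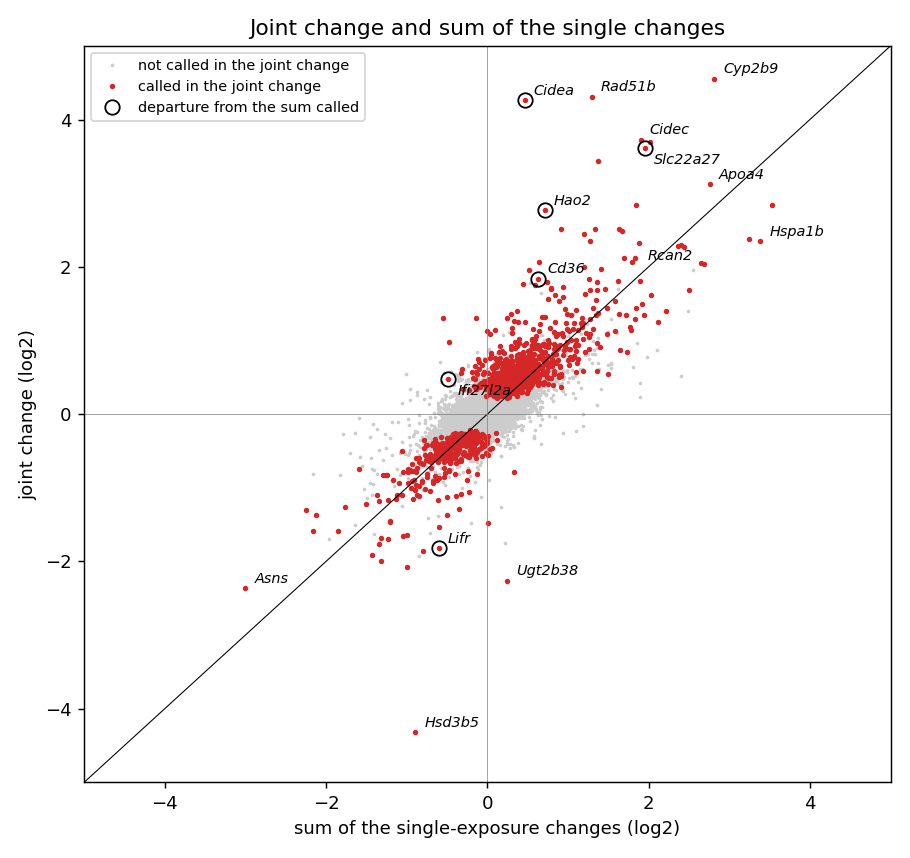
Joint change of penicillin plus high-fat diet (vertical axis, log2) against the sum of the changes with penicillin alone and high-fat diet alone (horizontal axis, log2) for 13789 tested genes, each point a gene, with the line where they are equal. Red points are the 1180 genes called in the joint change, and circles mark the 6 genes whose departure from the sum passed, among them Cidea and Hao2 far above the line and Lifr below it.

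The largest increases belonged to a P450, lipid droplet proteins and organic anion transporter genes. Cyp2b9, a P450 that is higher in female livers, rose 23.5-fold, a log2 change of 4.56 ± 0.51 (SE, n = 3 against 3). The probe set kept for Rad51b rose by 4.31 ± 0.44, but the other probe set of that gene read at the dim end of the arrays and differed by -0.01. Among the 15 higher genes with the largest change, the joint change was larger than the sum in 14, Nipal1 being the exception at 2.84 against a sum of 3.52. These genes were ranked by the joint change itself, which partly fixes that count. The 15 lower genes ran from Hsd3b5, a steroid dehydrogenase of the male liver, at -4.32 ± 0.50 to Cav1, which encodes caveolin, at -1.59 ± 0.39. Among these, Asns, Cyp2b10 and Cav1 fell by less than the sum.

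**Figure D2:**
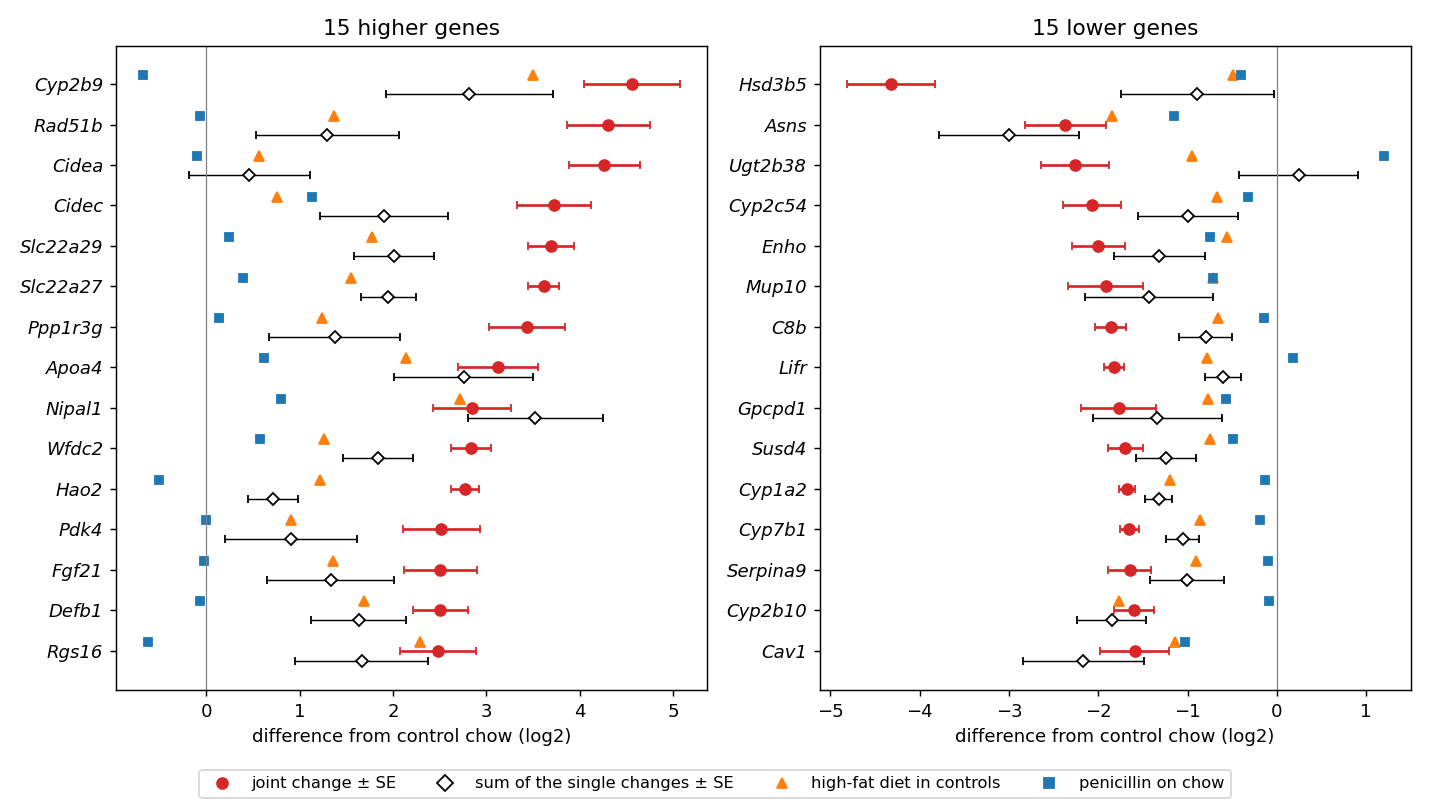
The 15 genes that rose most and the 15 that fell most with penicillin plus high-fat diet, as differences from control chow (log2). Red circles give the joint change and open diamonds the sum of the single changes, both with SE from the fit (3 mice per group), and triangles and squares give high-fat diet alone and penicillin alone. Red circles lie right of the diamonds for 14 of 15 higher genes, Nipal1 excepted, which the ranking by joint change partly fixes.

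Of 19 tested members of the droplet and lipolysis list, 6 rose, 1 fell and 12 did not pass, with a median joint change of 0.34 and a median sum of 0.12. Among all tested genes 5.74% rose and 2.81% fell, and the counts of every list below stand beside those shares. The droplet fusion protein gene Cidea read 4.48, 5.22 and 5.18 in the 3 control chow livers and 9.73, 8.14 and 9.79 in the 3 penicillin high-fat livers. The groups lay far apart, with the control livers at the dim end of the array, where folds are compressed. Cidea rose 19.2-fold (4.26 ± 0.38, adjusted p = 0.000155 in limma), while its single changes were -0.10 with penicillin and 0.56 with high-fat diet. The related Cidec, which joins droplets into larger ones, read 4.73, 4.83 and 4.80 in control chow and 8.66, 7.93 and 8.94 in penicillin high-fat livers. All 3 exposed livers again lay above every other array of the series. Cidec rose by 3.72 ± 0.39 against a sum of 1.90 ± 0.68, and that gap did not pass (adjusted p = 0.576). Plin4, a droplet coat protein gene, rose by 2.36 ± 0.35 with a sum of 1.27, and the droplet lipase gene Mgll and the droplet enzyme gene Hsd17b13 rose by 0.84 ± 0.11 and 0.60 ± 0.12. Lipe, which encodes hormone-sensitive lipase, fell by 0.53 on the log2 scale, from 7.07, 7.02 and 6.96 to 6.32, 6.71 and 6.43. That call was lost without control chow mouse 1 or 2, or penicillin high-fat mouse 1 or 3. Plin2, the droplet coat of most hepatocytes, differed by 0.45 without passing.

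Genes for taking up and carrying fatty acids rose in 4 of 16 tested members and fell in none. Cd36, the fatty acid translocase of the cell surface, read 9.43, 9.52 and 9.36 in control chow livers and 11.38, 11.15 and 11.29 in penicillin high-fat livers. The spread within each group was small beside the distance between them. Cd36 rose 3.58-fold (1.84 ± 0.11, adjusted p = 4.28e-06 in limma) while the sum of its single changes was 0.63 ± 0.19. Vldlr, the lipoprotein receptor, rose by 2.45 ± 0.24 with a sum of 1.19, from 4.25, 4.57 and 5.36 to 7.41, 6.84 and 7.28. Of the 6 probe sets of Vldlr the one kept changed most, and the others differed by 1.75, 1.17, 0.69, 0.47 and 0.06. Fabp2, the intestinal fatty acid binding protein gene, rose by 1.63 ± 0.16, of which high-fat diet alone gave 1.21. Fabp4, a binding protein of adipocytes and macrophages, rose by 1.13 ± 0.23, and its call was lost without penicillin high-fat mouse 3. Lpl, which encodes lipoprotein lipase, differed by -0.70 ± 0.21 without passing (adjusted p = 0.0601), and Pparg, the receptor gene itself, by 0.85 without passing.

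Of 17 glycerolipid synthesis genes, 5 rose, none fell and 12 did not pass. Mogat1, an acyltransferase that makes diacylglycerol, read 5.77, 5.91 and 6.01 in control chow and 7.63, 8.15 and 8.11 in penicillin high-fat livers, without overlap. Its joint change was 2.07 ± 0.21 and its sum 0.64 ± 0.36. Gpat3 and Gpam, both glycerol-phosphate acyltransferase genes, rose by 1.68 ± 0.31 and 0.77 ± 0.21, and the phosphatidate phosphatase genes Lpin1 and Lpin2 by 1.62 ± 0.38 and 0.88 ± 0.17. Lpin1 lost its call without penicillin high-fat mouse 1 or 2, and Gpam without any one of the control chow mice, penicillin chow mouse 3, control high-fat mouse 2, or penicillin high-fat mouse 1 or 2. The glycerolipid count was 3 without penicillin high-fat mouse 1. In de novo lipogenesis, 9 of 18 members rose and none fell, with a median joint change of 0.72 and a median sum of 0.76. Me1, the malic enzyme that supplies NADPH, rose by 1.53 ± 0.24 with a sum of 1.58, the elongase gene Elovl5 by 1.16 ± 0.15 with a sum of 1.06, and the desaturase gene Fads2 by 0.95 ± 0.15 with a sum of 1.09. For these genes the joint change lay within an SE of the sum. Without penicillin high-fat mouse 1 the lipogenesis count was 5. Fasn and Srebf1, the fatty acid synthase and its regulator, differed by 1.09 and -0.43 and did not pass. None of 20 cholesterol synthesis genes passed, with a median of -0.32. In penicillin high-fat mice 1, 2 and 3 the list levels were -0.058, 0.315 and -0.825, so mice 2 and 3 lay on opposite sides of mouse 1. Without mouse 2 of that group, a liver with Msmo1 at 12.13 against 11.36 and 10.42, 6 fell, and without mouse 3 of that group 0 fell.

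**Figure D3:**
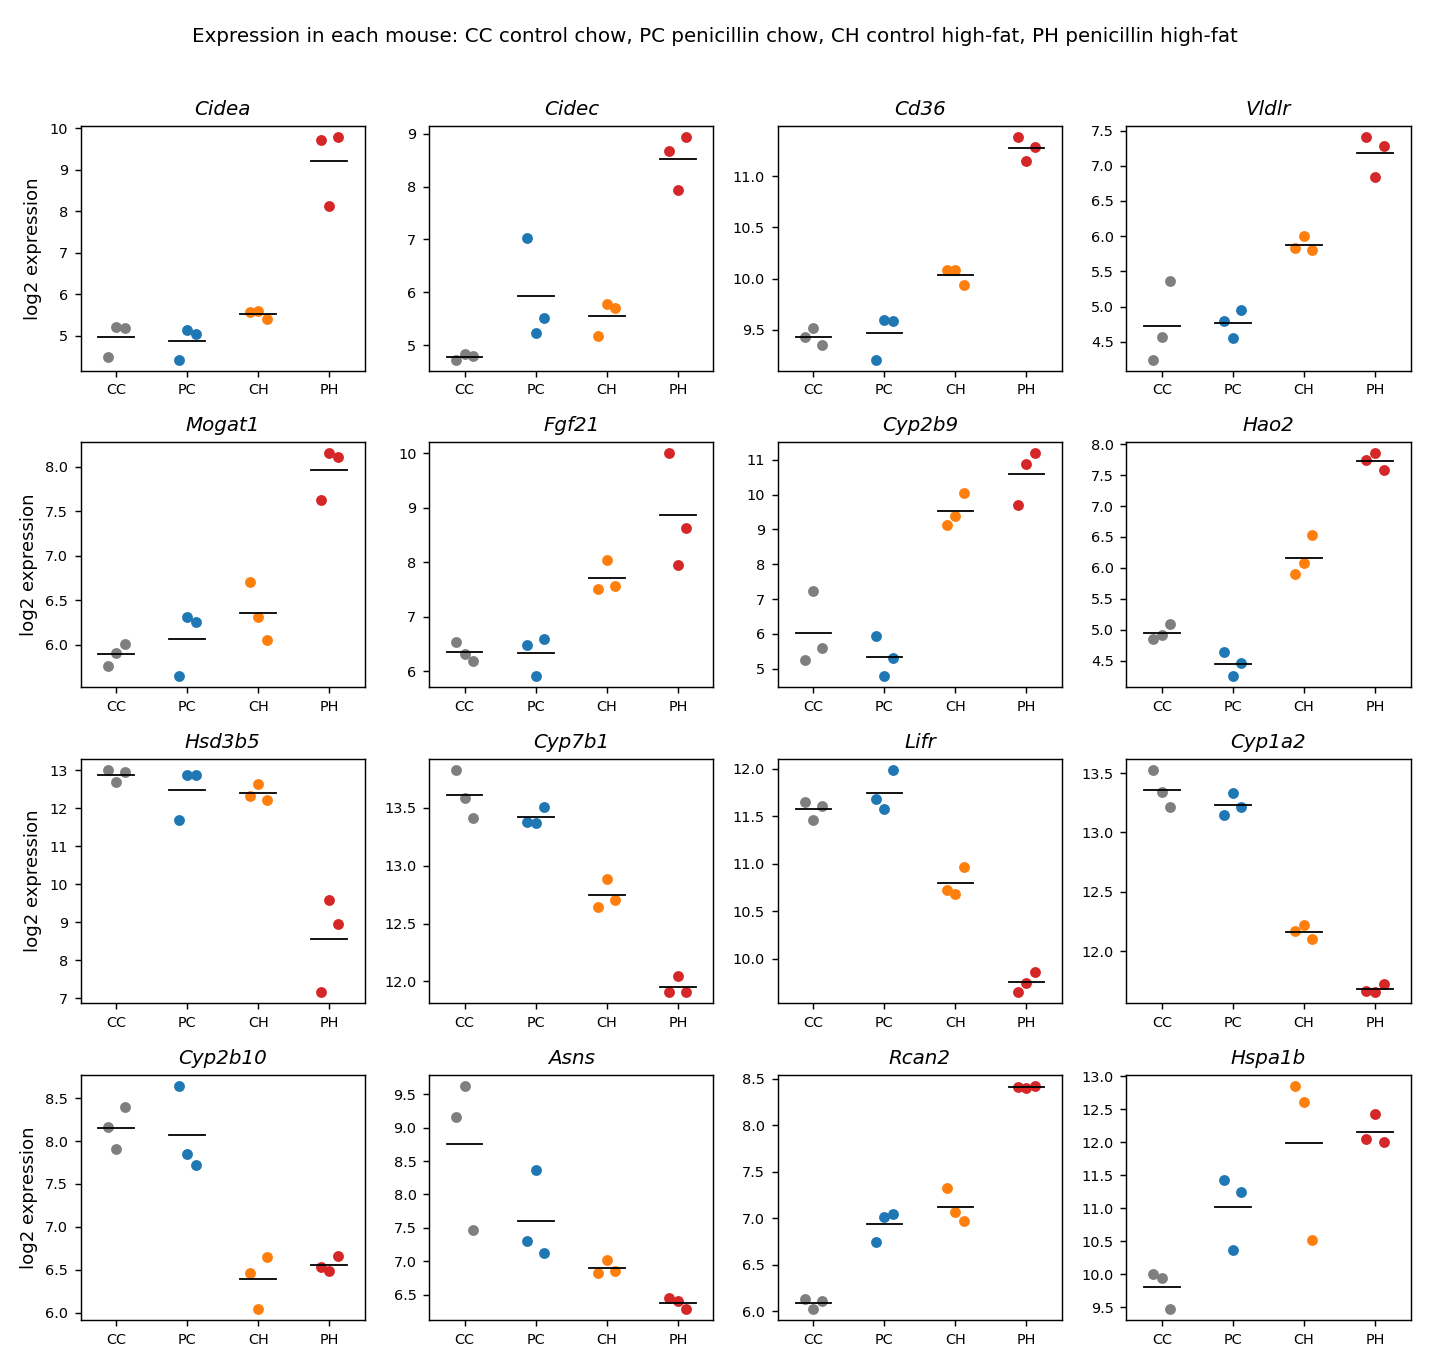
Log2 expression of 16 genes in each of the 12 livers, 3 per group, with bars at the group means (CC control chow, PC penicillin chow, CH control high-fat, PH penicillin high-fat). Cidea, Cd36 and Mogat1 are highest in all 3 PH livers, Hsd3b5 and Lifr lowest there, while Cyp2b10 and Hspa1b are at like levels in CH and PH.

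Targets of PPAR alpha and genes of fatty acid oxidation rose in 14 of 27 members and fell in none, with a median joint change of 0.37 and a median sum of 0.18. Apoa4, an apolipoprotein gene that follows hepatic lipid, rose by 3.12 ± 0.43, from 10.31, 10.54 and 10.19 to 13.38, 13.27 and 13.76. Its sum was 2.76, with 2.14 from high-fat diet alone, and penicillin chow mouse 1 read 12.35 where mice 2 and 3 read 10.06 and 10.499. Vnn1, the pantetheinase gene, rose by 2.26 ± 0.27 with a sum of 2.44. Fgf21, a hormone of the fasted and fat-fed liver, rose by 2.51 ± 0.39, reading 6.54, 6.32 and 6.19 in control chow and 9.997, 7.95 and 8.63 in penicillin high-fat livers. The groups did not overlap, but 1 exposed liver lay well above the others. When each of the 12 arrays was left out in turn, the joint change of Fgf21 ran from 1.94 to 2.96 and passed in all 12 fits. Pdk4, which turns off pyruvate oxidation, went from 5.17, 5.43 and 5.61 to 9.06, 7.10 and 7.61 (2.52 ± 0.41), and mouse 1 was highest for both genes. Aldh3a2, Acot2 and Pex11a, genes for fatty aldehydes, acyl-CoA hydrolysis and peroxisome number, rose by 0.97 ± 0.13, 0.76 ± 0.09 and 0.82 ± 0.13. Acot2 had a sum of 0.04 ± 0.16, and its departure did not pass (adjusted p = 0.12). Ppara and Cpt1a, the receptor gene and the gateway of mitochondrial import, differed by 0.03 and -0.01 without passing. All 3 penicillin high-fat livers exceeded the other 9 arrays in 13 of the 27 members, against 4% of all tested genes.

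In glucose metabolism 7 of 21 members rose and none fell. Ppp1r3g, a glycogen-targeting subunit of protein phosphatase 1, was dim in control chow at 4.40, 4.82 and 4.19 and reached 8.39, 7.88 and 7.44, a rise of 3.44 ± 0.40 with a sum of 1.38 ± 0.70. Khk, fructokinase, rose by 0.60 ± 0.07 and its sum was 0.61, and Pklr, pyruvate kinase of the liver, rose by 0.69 ± 0.17 with a sum of 0.78, a call lost without control chow mouse 2 or 3 or penicillin high-fat mouse 1 or 2. The coactivator gene Ppargc1a rose by 1.11 ± 0.21. The count was 4 without control chow mouse 2, control chow mouse 3 or penicillin high-fat mouse 1. Of 29 secreted proteins 3 rose and 2 fell, where 5.74% of all tested genes rose and 2.81% fell. Without penicillin chow mouse 1, 5 rose. Apoc2, the cofactor of lipoprotein lipase, rose by 0.87 ± 0.10, while Apom and Fetub, an apolipoprotein and a fetuin, fell by 0.53 and 0.46 on the log2 scale. Fetub had a sum of 0.06 and a joint change of -0.46 ± 0.08. Apoa1, Apob and Apoe, the bulk apolipoproteins, differed by 0.00, 0.07 and 0.05 without passing.

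Sex-biased liver genes moved in opposite directions. Of 16 male-biased genes, 10 fell and none rose, with a median joint change of -0.86 and a median sum of -0.37. Of 15 female-biased genes, 9 rose and none fell, with medians of 1.31 and 0.72. Hsd3b5 read 13.01, 12.68 and 12.96 in control chow and 7.15, 9.58 and 8.96 in penicillin high-fat livers. It was among the brighter genes of the control liver, and no exposed liver came near it. The joint change was -4.32 ± 0.50 (adjusted p = 0.000736 in limma), against -0.40 with penicillin and -0.49 with high-fat diet alone, and the departure of -3.43 ± 0.70 did not pass (adjusted p = 0.192). Cyp7b1, a hydroxylase of oxysterols and steroids, went from 13.83, 13.58 and 13.41 to 11.91, 12.04 and 11.91, or -1.65 ± 0.11 with a sum of -1.05 ± 0.18. The steroid and bile acid transporter gene Slco1a1 fell by 0.81 on the log2 scale with a sum of -0.13, and the complement regulator gene Susd4 fell by 1.70 with a sum of -1.24. Ugt2b38, a glucuronosyltransferase gene, fell by 2.26 although its sum was 0.24 ± 0.66, since it differed by 1.20 with penicillin alone and -0.95 with high-fat diet alone, neither of which passed. Leaving out single mice gave 10 to 11 male-biased and 7 to 9 female-biased calls. In 8 of the 16 male-biased genes all 3 penicillin high-fat livers lay below the other 9 arrays, which held for 2.36% of all tested genes.

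Among the female-biased genes, Hao2, a peroxisomal hydroxy acid oxidase gene, read 4.86, 4.91 and 5.09 in control chow and 7.74, 7.85 and 7.58 in penicillin high-fat livers. The values within a group differed by less than 0.3 on the log2 scale. Hao2 rose by 2.77 ± 0.15 (adjusted p = 2.52e-06 in limma) while its sum was 0.71 ± 0.27. Slc22a27, an organic anion transporter gene, rose from 4.43, 4.49 and 4.96 to 8.48, 8.09 and 8.16 (3.61 ± 0.17), with a sum of 1.95 ± 0.29. Slc22a29, of the same gene family, rose by 3.69 ± 0.25 with a sum of 2.01. Both are read by a single probe set of a type marked as open to cross-hybridisation, and these paralogues may share signal. Nipal1, a magnesium transporter family gene, rose by 2.84 ± 0.42, nearly all of it with high-fat diet alone (2.72). Rtn4, a reticulon of the endoplasmic reticulum, rose by 0.65 ± 0.07 with a sum of 0.12.

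Genes of growth hormone signalling mostly did not pass, and the part of growth hormone in the sex-biased changes was not tested. Of 18 members, 1 rose and 2 fell. Lifr, the receptor of leukaemia inhibitory factor, read 11.65, 11.46 and 11.61 in control chow and 9.64, 9.74 and 9.86 in penicillin high-fat livers. No array of either group came within 1 log2 unit of the other group. It fell 3.54-fold (-1.82 ± 0.12, adjusted p = 7.45e-06 in limma), with 0.18 for penicillin alone and -0.78 for high-fat diet alone, and its other probe sets differed by -0.94 and -0.41. The binding protein gene Igfbp2 fell by 0.94 and Igfbp3 rose by 0.56 ± 0.14, a call lost without control chow mouse 1 or 2 or penicillin high-fat mouse 1 or 3. Egfr differed by -1.41 ± 0.42 (adjusted p = 0.0598) and Ghr, Stat5b and Igf1, the receptor, its transcription factor and the hormone it induces, by 0.04, 0.22 and -0.18, without passing.

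**Figure D4:**
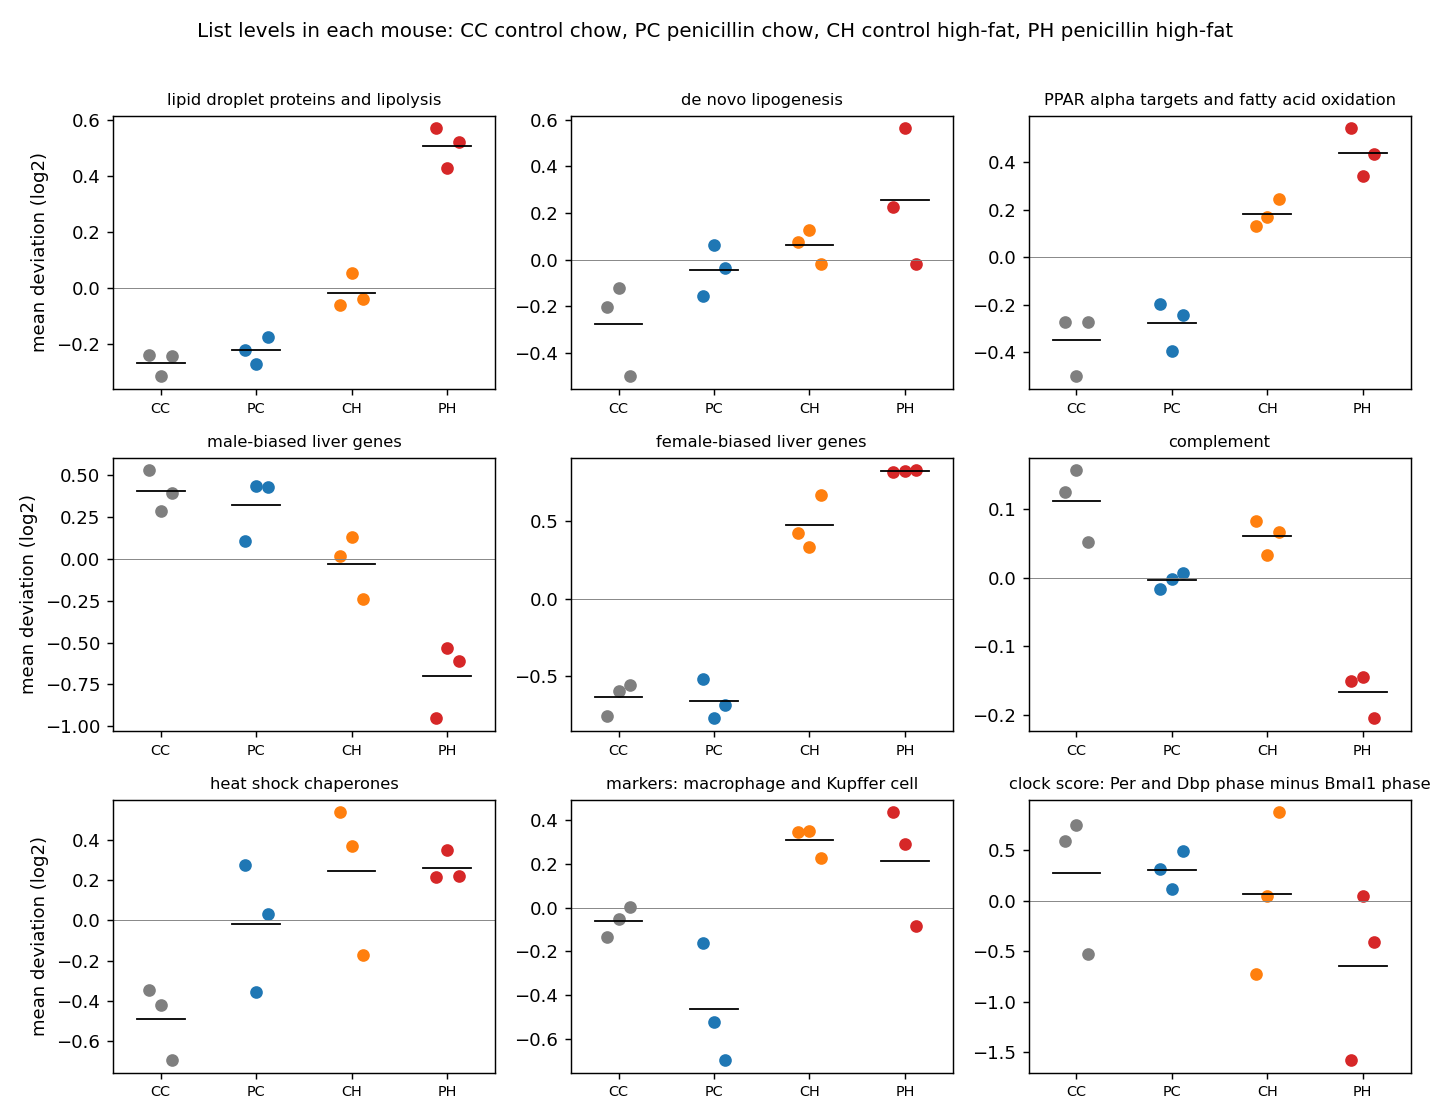
Mean deviation from the gene's mean over 12 livers (log2) for 8 gene lists, and a clock score, in each liver (CC control chow, PC penicillin chow, CH control high-fat, PH penicillin high-fat, 3 each, bars at group means). Droplet, PPAR alpha and female-biased lists are highest and the male-biased and complement lists lowest in all 3 PH livers, while heat shock, macrophage and clock levels of PH and CH livers overlap.

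Xenobiotic P450 genes split within the Cyp2b family. Cyp2b9 and Cyp2b10 were both placed on the list of targets of the receptors CAR and PXR, and they lie near each other on chromosome 7. Whether CAR acts on both genes was not tested. Because these paralogues moved in opposite directions, a stretch upstream of each is shown, from RefSeq on GRCm38.p6, at chr7:26173159-26173349 for Cyp2b9 and chr7:25897408-25897598 for Cyp2b10, both on the plus strand. Capitals mark the bases that differ from the partner or have none in it, and 139 of 181 aligned bases were identical (76.8%).
Cyp2b9: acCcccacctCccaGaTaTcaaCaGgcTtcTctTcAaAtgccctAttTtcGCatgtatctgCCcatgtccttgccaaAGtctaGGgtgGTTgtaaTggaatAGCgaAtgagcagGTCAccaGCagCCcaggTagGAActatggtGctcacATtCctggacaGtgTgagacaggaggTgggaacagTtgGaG
Cyp2b10: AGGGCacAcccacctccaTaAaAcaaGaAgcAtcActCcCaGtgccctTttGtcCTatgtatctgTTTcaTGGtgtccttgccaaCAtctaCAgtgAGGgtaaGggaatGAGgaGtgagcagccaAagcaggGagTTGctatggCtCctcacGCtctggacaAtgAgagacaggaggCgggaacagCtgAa

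Cyp2b9 read 5.25, 7.23 and 5.60 in control chow and 9.69, 10.88 and 11.18 in penicillin high-fat livers. Control chow mouse 2 stood apart from its group, yet the groups did not overlap. Of the 4.56 rise, 3.50 was present with high-fat diet alone, and penicillin on chow differed by -0.68. Cyp2b10 read 8.17, 7.90 and 8.39 in control chow and 6.53, 6.49 and 6.66 in penicillin high-fat livers, a fall of 1.59 on the log2 scale with -1.77 from high-fat diet alone and -0.08 from penicillin alone. Its other probe sets differed by -2.83 and -2.70. In the whole list of CAR and PXR targets 3 of 21 rose and 8 fell. Cyp1a2, a P450 of caffeine and arylamine metabolism, went from 13.53, 13.34 and 13.21 to 11.67, 11.65 and 11.72 (-1.68 ± 0.09, adjusted p = 1.57e-06 in limma), with a sum of -1.32 ± 0.15. Cyp2c54 fell by 2.08 and Cyp2c37 by 0.79, while Cyp2c38 rose by 1.25 ± 0.17, all members of the family that hydroxylates fatty acids and drugs. Cyp3a11, the main PXR target of the list, and Nr1i3, the gene of CAR, differed by -0.26 and -0.25 without passing. Ces2a, a carboxylesterase gene, fell by 1.29 with a sum of -0.35, and its relative Ces2e rose by 0.69 ± 0.11. Of 25 glutathione and NRF2 genes, the quinone reductase gene Nqo1 rose by 0.81 ± 0.12 with a sum of 0.05, Mgst3, a microsomal glutathione transferase, by 1.22 ± 0.18 with a sum of 0.66, and none fell. A dim second probe set of Mgst3 differed by 0.09. The count of higher genes was 5 without penicillin chow mouse 1, 4 without penicillin high-fat mouse 2 and 7 without the 3 arrays of low 18S signal. In the last 2 of these fits 1 gene fell, as it did without control chow mouse 2 or control high-fat mouse 3.

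**Figure D5:**
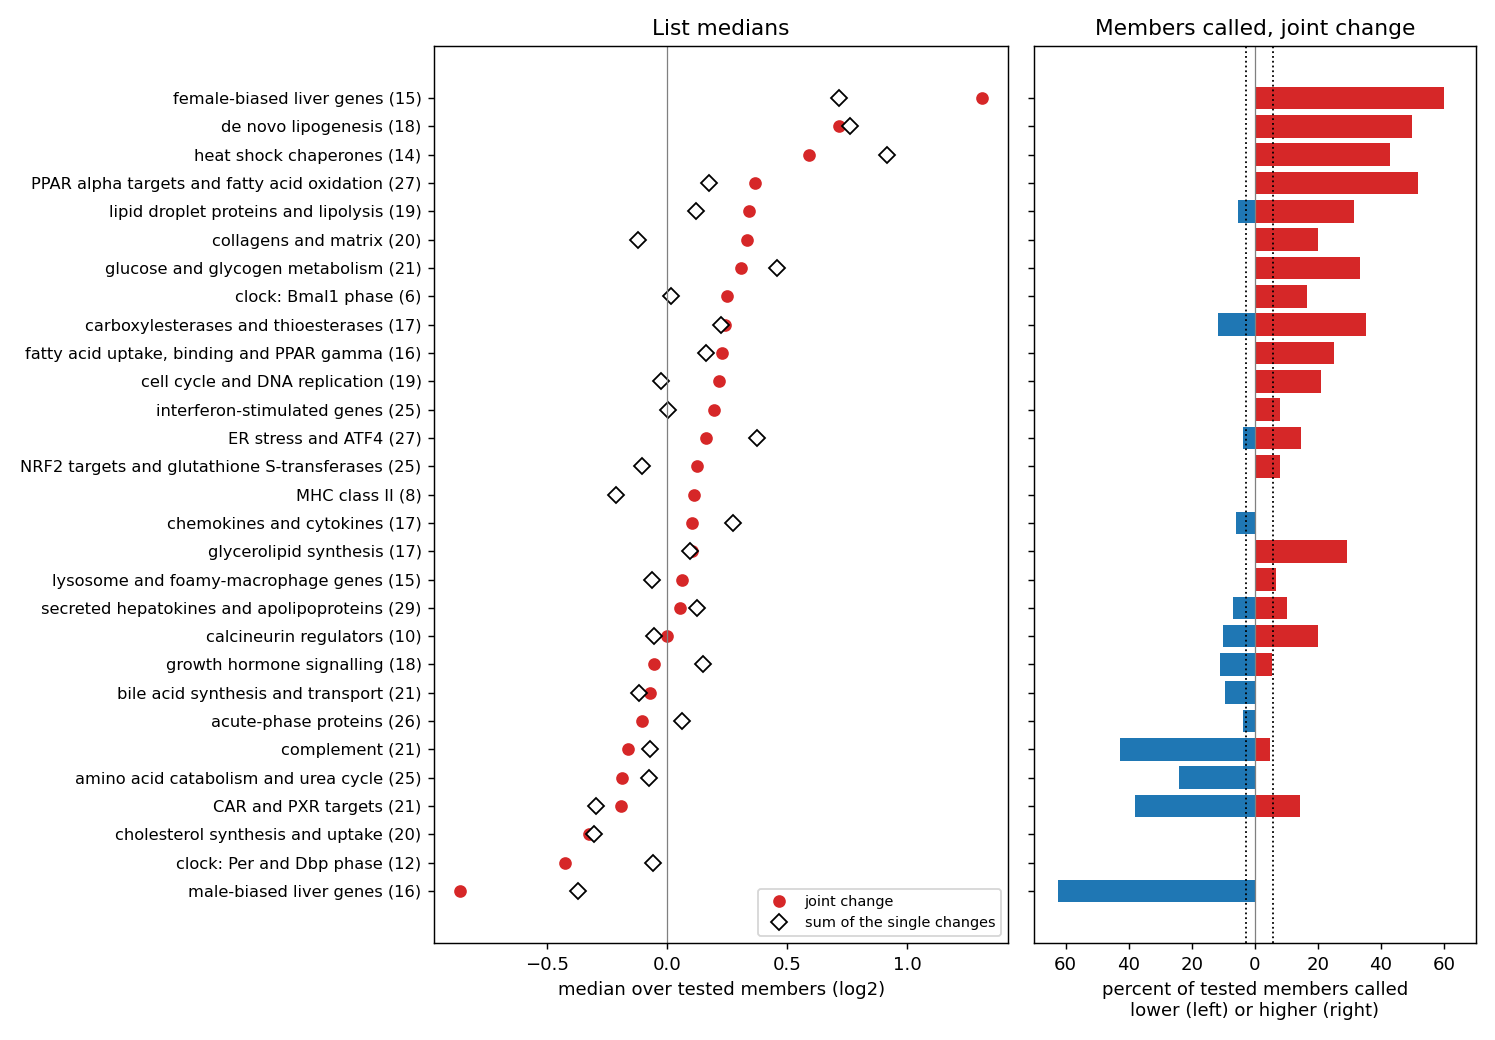
Left, median joint change (red circles) and median sum of the single changes (open diamonds) over the tested members of 29 gene lists, in log2 units, with the number of tested members in brackets. Right, the percent of those members that rose (red) or fell (blue) in the joint change, with dotted lines at the share over all tested genes, 5.74% higher and 2.81% lower.

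Of 21 bile acid synthesis and transport genes, Cyp7b1 and Slco1a1 fell and no other passed. Cyp27a1, the sterol hydroxylase that opens the alternative pathway, differed by -0.23 ± 0.10 and Nr1h4, the gene of the bile acid receptor FXR, by -0.29 ± 0.12, without passing. Amino acid genes fell in 6 of 25 members and rose in none, or 3 without control chow mouse 2. Cps1, the first enzyme of the urea cycle, went from 14.20, 14.23 and 14.15 to 13.70, 13.91 and 13.64, and Agxt, which detoxifies glyoxylate, fell by 0.47 on the log2 scale with a sum of 0.03. Asns, asparagine synthetase, read 9.17, 9.62 and 7.46 in control chow and 6.45, 6.41 and 6.29 in penicillin high-fat livers. Control chow mouse 3 was well below its group, and it also stood apart in the clock score. The fall of 2.37 was smaller than the sum of -3.00 ± 0.78, and the call was lost with the clock score as a covariate.

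Complement genes made by hepatocytes fell in 9 of 21 members, and 1 rose, or 3 without penicillin chow mouse 1. C8b, a chain of the membrane attack complex, read 12.25, 12.17 and 11.92 in control chow and 9.94, 10.70 and 10.12 in penicillin high-fat livers, without overlap. It fell by 1.86 ± 0.17 on the log2 scale with a sum of -0.80 ± 0.30. C6, another attack complex component, fell by 1.11, C2 and C1ra, of the initiating steps, by 0.86 and 0.54, and the coagulation factor gene F11 by 1.16. The list's median joint change was -0.16, since most other members differed little. C6 and C8a are also on the male-biased list. In 7 of the 21 all 3 penicillin high-fat livers lay below the other 9 arrays, against 2.36% of all tested genes. Leaving out single mice gave 6 to 9 lower members.

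Of 26 acute-phase genes, Hamp, the iron hormone hepcidin, fell by 1.13 ± 0.18 (from 13.30, 13.01 and 13.74 to 12.06, 12.20 and 12.40) and no other passed. None of 8 MHC class II genes passed, and of 17 chemokines and cytokines the macrophage chemokine gene Ccl9 fell by 0.77, a call lost without penicillin high-fat mouse 1, and no other passed. Of 25 interferon-stimulated genes, Ifi27l2a and Ifi27l2b rose by 0.48 ± 0.09 and 0.67 ± 0.12, each with a sum below 0, and none fell. Without control high-fat mouse 3, 5 rose and 2 fell, and without penicillin high-fat mouse 2, 2 rose and 2 fell. Cxcl9, an interferon-induced chemokine, differed by 1.02 ± 0.29 without passing (adjusted p = 0.0533).

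Heat shock chaperone genes rose in 6 of 14 members, and here the joint change was smaller than the sum, with medians of 0.59 and 0.92. Hspa1b, an inducible HSP70, read 10.001, 9.95 and 9.48 in control chow and 12.04, 12.42 and 12.01 in penicillin high-fat livers, a rise of 2.35 ± 0.49. The sum was 3.38 ± 0.86, since penicillin alone differed by 1.20 and high-fat diet alone by 2.18, neither of which passed. Hspb1, a small heat shock protein, and Hspa4l, an HSP110 relative, rose by 1.25 ± 0.31 and 0.88 ± 0.21 with sums of 2.11 and 1.65. The departures did not pass (adjusted p = 0.883 for Hspa1b, 0.853 for Hspb1 and 0.736 for Hspa4l). The heat shock count was 2 or 3 without any one of the 6 arrays compared. Each such fit also has fewer mice in a group, so the lower count is not tied to a particular mouse. In the list of ER stress and ATF4 targets 4 of 27 rose and 1 fell. Herpud1, a factor of protein degradation at the endoplasmic reticulum, and Ddit3, the stress transcription factor CHOP, rose by 1.04 ± 0.25 and 0.94 ± 0.24. That count was 1 without control chow mouse 1 or 3, or penicillin high-fat mouse 1 or 3, and 2 without control chow mouse 2.

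Rcan2, an inhibitor of the phosphatase calcineurin, varied little within groups. It read 6.14, 6.03 and 6.11 in control chow livers and 8.41, 8.40 and 8.42 in penicillin high-fat livers, and the 6 arrays of the single exposures lay in between. Rcan2 rose 4.99-fold (2.32 ± 0.10, adjusted p = 7.32e-07 in limma) and was the gene called for penicillin alone, at 0.85. With high-fat diet alone it changed by 1.03, so the sum was 1.88 ± 0.18 and the departure of 0.44 ± 0.15 did not pass. A dim second probe set differed by 0.19. Rcan1, its relative, rose by 0.95 ± 0.25, but it passed in 3 of the 12 fits that each left out 1 mouse. Of 10 calcineurin genes 2 rose and 1 fell.

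Several of the largest changes fell outside the lists. Wfdc2, a small secreted protein of the protease inhibitor family, read 6.98, 7.37 and 7.49 in control chow and 10.46, 9.61 and 10.27 in penicillin high-fat livers, and rose by 2.83 ± 0.22 with a sum of 1.84 ± 0.38. The 2 sets of livers lay over 2 log2 units apart. Defb1, an antimicrobial defensin, rose by 2.51 ± 0.29 with a sum of 1.63, and Rgs16, a brake on G protein signalling, by 2.48 ± 0.41 with 2.29 from high-fat diet alone. Osbpl3, of the oxysterol-binding protein family, rose by 1.31 ± 0.26 although its sum was -0.55 ± 0.46, and the departure of 1.86 ± 0.37 did not pass (adjusted p = 0.19). Among the genes that fell, Enho, which encodes the peptide adropin, went from 9.20, 9.72 and 8.85 to 8.04, 6.98 and 6.75, or -1.998 ± 0.29 with a sum of -1.31. These groups did not overlap, although 1 exposed liver lay nearer the controls. Of the other probe sets of Enho, 1 differed by -1.88, while 2 dim ones differed by 0.06 and -0.16. The other probe set of Defb1 differed by 1.48. Mup10, a major urinary protein, changed by -1.92 ± 0.42 and Gpcpd1, a glycerophosphocholine phosphodiesterase, by -1.77 ± 0.42. Serpina9, a serpin, read below the filter level in the exposed livers, at 4.78, 4.48 and 4.76, so its change of -1.65 ± 0.24 is compressed. Single mice ended some of these calls. Mup10 lost its call without control chow mouse 1, and Gpcpd1 and Cav1 lost theirs without control chow mouse 1 or 2, among others.

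Of 20 collagen and matrix genes 4 rose and none fell, or 7 rose without the 3 arrays of low 18S signal. Col3a1, a fibrillar collagen gene, read 8.72, 8.90 and 8.57 in control chow and 9.88, 9.45 and 9.82 in penicillin high-fat livers. Its joint change was 0.98 ± 0.17 and its sum was -0.48 ± 0.30, and the departure of 1.47 ± 0.25 did not pass (adjusted p = 0.108). Col4a1, a basement membrane collagen, and Lum, the proteoglycan lumican, rose by 0.78 ± 0.16 and 0.56 ± 0.16. Col1a1 differed by 0.13 without passing. Of 19 cell-cycle genes 4 rose. Cdkn1a, the inhibitor p21, rose by 1.72 ± 0.32 from 6.80, 6.63 and 7.03 to 9.13, 7.97 and 8.50, and the helicase subunit gene Mcm6 by 0.73 ± 0.20. The proliferation marker Mki67, at 4.75 to 4.85 in control chow, lay at the dim end and rose by 0.37 ± 0.10. The calls of Lum, Mcm6 and Mki67 were each lost without any one of the control chow mice, control high-fat mouse 1 or penicillin high-fat mouse 1, among others. The cell-cycle count was 1 or 2 without any one of the control chow mice, control high-fat mouse 1, or penicillin high-fat mouse 1 or 2.

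Markers of other liver cells were read beside these groups, and their part in the results was not tested. Of 12 stellate cell and fibroblast markers, all differed upward and 2, Col3a1 and Lum, passed, with a median of 0.47 and list levels from -0.16 to -0.05 in control chow and 0.09 to 0.43 in penicillin high-fat livers. None of 17 macrophage markers passed, 15 were higher, and the median was 0.32. Cd68 and Adgre1, which mark macrophages, differed by 0.56 and 0.51. Of 12 endothelial markers Lyve1, of sinusoids, rose by 1.36 ± 0.34 and no other passed. Its call was lost without any one of control chow mice 1 and 3 and the 3 penicillin high-fat mice. Of 4 B cell markers Cd79b and Ms4a1 fell by 0.54 and 0.65, both near the dim end, but neither passed in every fit that left out a single mouse, and of 8 T and NK markers none passed. Of 5 pancreatic acinar markers, Cela1, an elastase gene, went from 10.44, 10.08 and 10.06 to 9.05, 9.63 and 9.53, and Cela2a, at 5.03 to 5.20 in control chow, fell by 0.32, while Cpa1 and Ctrb1, which define acinar cells, differed by 0.02 and 0.01. Of 11 hepatocyte markers Cps1 fell and no other passed. None of 12 clock genes of the Per and Dbp phase passed, and of 6 of the Bmal1 phase Nfil3, a transcription factor gene, rose by 1.38 and no other passed. Nfil3 passed in 4 of the 12 fits that each left out 1 mouse. Dbp itself read 12.54, 12.16 and 11.71 in control chow and 8.97, 11.31 and 11.28 in penicillin high-fat livers, lowest in mouse 1.

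The departure from the sum passed for 5 genes above it and 1 below it, and all 6 were also called in the joint change. The departure was 3.80 ± 0.53 for Cidea (adjusted p = 0.0389 in limma), 2.06 ± 0.22 for Hao2 (adjusted p = 0.0114), 1.66 ± 0.24 for Slc22a27 (adjusted p = 0.0418) and 1.21 ± 0.15 for Cd36 (adjusted p = 0.0323). Ifi27l2a departed by 0.97 ± 0.13, since penicillin alone differed by -0.68 and the joint change was 0.48. Lifr departed by -1.22 ± 0.16, but its other probe sets departed by less. The bright one, at a mean of 10.60, departed by -0.28 and the dimmer one by -0.72. Each of these 6 lay beyond all 9 other arrays in the 3 penicillin high-fat livers, which choosing them on the same arrays favours. The departure count moved with single mice: none of the tested genes passed without control chow mouse 2, penicillin chow mouse 3 or penicillin high-fat mouse 1, and 1 passed without control high-fat mouse 1 or 3 or penicillin high-fat mouse 3. It was 3 without penicillin chow mouse 1 or 2 and 10 without control chow mouse 3. An unadjusted departure p under 0.05 in limma was reached by 842 of the 13789 tested genes. A share of about 0.05 would reach it with no departure in any gene, so this is not a count of departing genes. The next genes by p were Pigp (0.81 ± 0.12), Col3a1, Sox18 (0.64 ± 0.11) and Enc1 (1.04 ± 0.18), which did not pass.

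Penicillin high-fat livers also differed from livers on the same diet without penicillin, in 47 genes or 0.341%. Values for the members above stood side by side as follows. Relative to control high-fat livers, Cidea was higher by 3.70, Cidec by 2.96, Mogat1 by 1.60 and Cd36 by 1.24, and Hsd3b5 was lower, at -3.83, as was Lifr at -1.04, all of which passed. Cyp2b9 differed by 1.06, Fgf21 by 1.15, Apoa4 by 0.99, Me1 by 0.55, Hspa1b by 0.17 and Cyp2b10 by 0.17, none of which passed. Genes just inside the threshold of the joint change were Fnbp1l at 0.25 ± 0.07 and Sugp1 at -0.33 ± 0.09, both with an adjusted p of 0.0497 in limma, and just outside were Srebf2 at -0.32 ± 0.09 and Treml1 at -0.34 ± 0.10, both at 0.0502.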

How the data were processed

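Liver RNA was read on 12 arrays. The authors deposited a log2 expression value for each of 45101 probe sets, and the submitters' processing notes name RMA and the affy package, with versions not given in the sources used here. Of the probe sets, 34958 had 1 gene symbol in GEO's platform annotation, 932 had several, 9160 had none and 64 were controls. A gene was represented by its probe set of highest mean on the 12 arrays, which gave 18194 genes. The filter required log2 5.00, the 40th percentile over the table, to be exceeded on 3 or more arrays, and 13789 genes were tested. Differences were fitted with limma (version 3.58.1, R 4.3.3) on 4 group means over all 12 arrays, with 8 residual degrees of freedom, eBayes and Benjamini-Hochberg adjustment over all tested genes, at an adjusted p under 0.05. The median SE was 0.10 for a joint change and 0.15 for a departure. Detection calls were not used here, so folds of genes near log2 5.00 are compressed. Precision is limited by having 3 arrays a group.

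Members and gene lists were chosen with earlier results of these data known. Named genes were the 15 higher and 15 lower with the largest change and no overlap, up to 5 members of each list by p with the regulators and relatives of the list, and, for the departure, all that passed, the 10 with the smallest p and the 6 most positive and 6 most negative among the genes called. Sequences came from a RefSeq promoter table (GRCm38.p6), taken as the same part of each upstream window, which ends where the annotated Cyp2b9 gene begins and some bases short of the Cyp2b10 gene, and aligned with Biopython (version 1.88). The fit was tested on simulated data with changes added to the penicillin high-fat group. Of changes of 0.5 on the log2 scale, 60% were recovered as a joint change and 26% as a departure. At a size of 1 the shares were 92% and 80%. The simulated noise was independent between genes, and no single-exposure change was added. Far more genes departed in the simulation than passed in the real data, which eases the adjusted threshold. These shares therefore do not tell how many departures of a given size were missed here. In the joint change, 18 genes without an added change were called. Alternatives covered the filter, the probe set, scaling, array weights, variance model, thresholds, a replicate block and leaving out each array, and after the data were seen, the clock score as a covariate and 2 sets of arrays left out. Replicate numbers did not pair the samples, with 3 of 18 same-number pairs correlated above 0.1.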

Additional observations from a re-analysis of the deposited data

Results flagged for a closer look

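The joint change differed from the sum of the single-exposure changes by a test of the difference itself, the interaction term of limma with Benjamini-Hochberg adjustment, in 6 genes. The departures were 3.80 for Cidea, 2.06 for Hao2, 1.66 for Slc22a27, 1.21 for Cd36, 0.97 for Ifi27l2a and -1.22 for Lifr. When each of the 12 arrays was left out in turn, the departure of Hao2 passed in 9 fits and that of Cidea in 2. Cd36 passed in 6, Lifr in 4, and each of Slc22a27 and Ifi27l2a in 3. In those fits their sizes moved little: Cidea ran from 3.51 to 4.34, Hao2 from 1.92 to 2.24 and Cd36 from 1.08 to 1.27. Across every setting tried, Lifr ran from -1.305 to -0.74, and its other probe sets departed by -0.28 and -0.72.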

How the results depend on the processing

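The joint count of 1180 moved to 1972 with array weights, 358 at an adjusted p under 0.01, 2001 under 0.10, 451 with at least 1.5-fold, 437 with the clock score as a covariate and 775 without penicillin chow mouse 1 and penicillin high-fat mouse 1, which stood apart in acute-phase or clock genes, and ran from 494 to 1614 when single arrays were left out. Other fits gave 984 (replicate block) to 1578 (18S signal as a covariate). With the departure count of 6, array weights gave 15, the replicate block 2, the 18S covariate 1, an adjusted p under 0.01 gave 0, the clock covariate 2 and leaving out 3 arrays of low 18S signal 24, and single arrays left out gave 0 to 10. The replicate numbers do not pair the samples, and the fit with the replicate number as a block is given only for completeness. Over 5406 recomputed values for named genes, 4887 kept direction and call, 353 lost the call and 147 gained it. None reversed a called direction, and 19 uncalled values changed sign. The causes were not tested. Cage, litter and hybridisation batch were not used here, and a batch in step with the groups cannot be told apart from them.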
